A study of Drosophila melanogaster with 20 samples.

Results

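The 96 transcripts described here were higher in pupal wings of Drosophila melanogaster that expressed activated Thickveins (Tkv) than in pupal controls, differed little between the genotypes in larval wings, and were not lower by 0.6 or more (log2) in control pupal than in control larval wings. They were 96 of the 15473 transcripts on the array. They were selected on measured intensities of all 20 arrays, so the values behind these properties are given as a description and carry no test. On the log2 scale the rule asked for a pupal difference (Tkv minus control, pupal) of at least 0.6, which is 1.52-fold. It also asked for a larval difference (Tkv minus control, larval) below 0.35 in size and a normal stage change (control pupal minus control larval) above -0.6. The Tkv array finally had to exceed the control array in all 5 pupal pairs of the same replicate number.

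Total RNA of dissected wings was measured on 20 single-colour NimbleGen arrays, 5 for each of 4 groups, with 10 wings pooled per sample. The groups were Tkv pupal wings (24 h after pupa formation, Tkv transgene), control pupal wings (24 h, no transgene), Tkv larval wings (wandering larvae of instar 3, Tkv transgene) and control larval wings (wandering larvae, no transgene). Animals of all groups, mock controls included, grew at 18 °C and were held at 28 °C for 10 h before dissection, so the temperature shift is shared by the controls. The transgene was driven through Gal4/UAS, the control strain matched the Tkv strain but lacked the UAS construct, and neither the driver line nor the cells it acts in are named. Other differences between the strains cannot be told apart from the transgene. The 5 samples of a group were isolated independently, per the series' design text. How their animals were related is not stated.

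Thickveins is a type I receptor for Decapentaplegic (Dpp), a ligand of the BMP family. An active receptor phosphorylates the transcription factor Mad, which enters the nucleus with Medea and changes the transcription of target genes. In the larval wing disc Dpp signalling guides growth and patterning along the anterior-posterior axis, and in the pupal wing it takes part in the formation of veins. The 4 groups therefore allow the response to an active receptor to be compared between a growing and a differentiating wing.

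Only FlyBase transcript IDs are given for the probes. Of the 15473 IDs 44 occur in the RefSeq gene table used here, and 0 of the 96 members are among them. No member is therefore given a gene name, a function or a sequence, and whether several members come from one gene is not known. For the same reason the tissue label was not checked against marker genes. In bulk RNA, more cells of a type and more RNA per cell cannot be told apart, and this holds for every difference below.

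Applied step by step, the rule started from 507 transcripts with a pupal difference of at least 0.6. Of these, 296 were higher in Tkv wings in all 5 pupal pairs, 165 of the 296 also had a larval difference below 0.35 in size, and 96 of the 165 remained once a normal stage change above -0.6 was required. Another 69 transcripts met every condition but the one on the stage change, and 81 met every condition but the one on the pairs. The pupal difference of the 96 ran from 0.604 to 3.34 with a median of 0.849 (log2), where the median over all transcripts was -0.0033. The pupal difference was at least 1 (log2) for 33 members and at least 2 for 5, against 164 and 22 of all 15473 transcripts. The rule used this difference, so nothing is read from these counts. The larval difference had a median of 0.0871 and was above 0 for 58 members. Over all transcripts its median was -0.0114, and it was above 0 for 7346 of 15473.

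**Figure D1:**
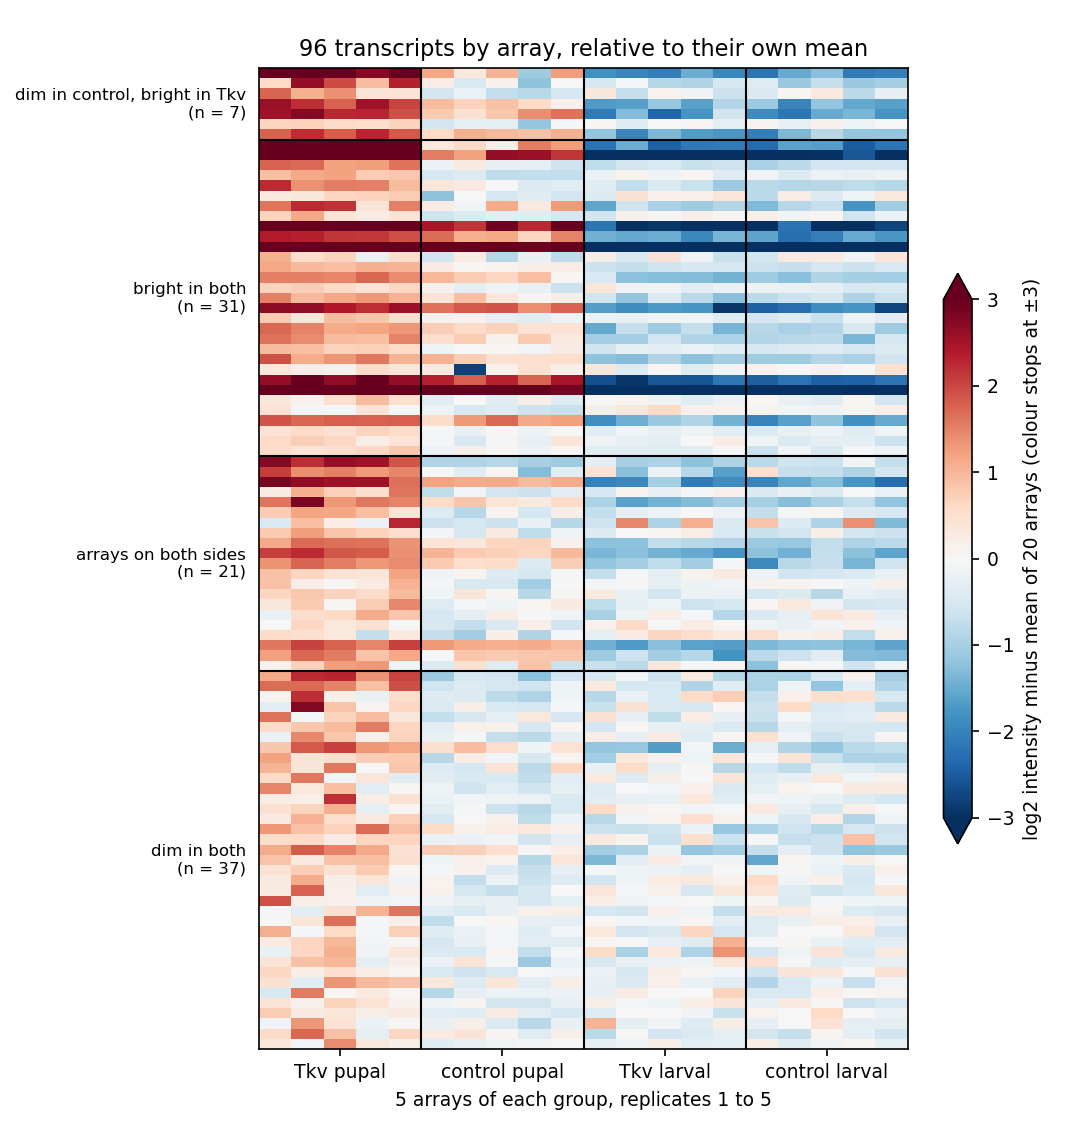
Log2 intensity of the 96 transcripts (rows) on the 20 arrays (columns, 5 per group), relative to each transcript's mean over the 20 arrays. Rows are split by whether the pupal arrays lay below (dim) or above (bright) a level of 8.64, and the 37 dim rows have a median SD of 0.533 over the Tkv pupal arrays.

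The members differed in brightness. Normalized log2 intensities on these arrays fall into a dim and a bright mode, with the lowest density between them at 8.64. By this boundary 37 members were dim on all 10 pupal arrays and 31 were bright on all 10. A further 7 were dim on the 5 control pupal arrays and bright on the 5 Tkv pupal arrays, and the remaining 21 had arrays of one group on both sides. Over all transcripts the corresponding shares were 42.2% dim, 50.4% bright and 0.129% dim in control but bright in Tkv pupal wings. The 7 members of the last kind are 7 of the 20 transcripts on the array with that pattern. Crossing the boundary builds a large pupal difference into this pattern: the median difference was 1.57 for the 7 members and 1.73 for all 20 transcripts. The median was 0.832 for the bright members and 0.754 for the dim ones.

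**Figure D2:**
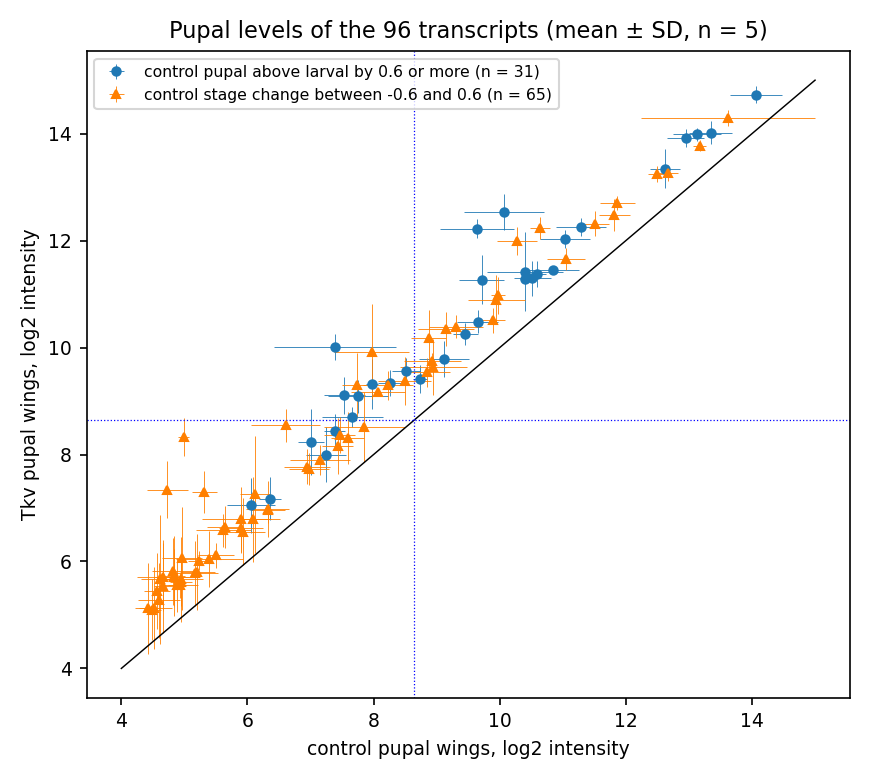
Mean log2 intensity (± SD, n = 5) of each of the 96 transcripts in Tkv pupal wings (vertical axis) and control pupal wings (horizontal axis), coloured by the normal stage change. The solid line marks equal levels, the dotted lines the boundary of 8.64, and the group at the lower left holds the dim transcripts.

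The member with the largest pupal difference was FBtr0071612. Its log2 intensity was 8.69, 8.14, 8.54, 8.45 and 7.81 in Tkv pupal wings, against 5.03, 5.03, 5.09, 4.93 and 4.86 in control pupal wings. In larval wings it was 5.67, 4.94, 5.02, 4.71 and 5.01 with Tkv, against 5.12, 5.33, 5.30, 5.82 and 5.21 in controls. All 5 Tkv pupal arrays thus lay above all 15 other arrays, which lay near the bottom of the range in both larval groups and in pupal controls. The pupal means, 8.33 ± 0.35 in Tkv and 4.99 ± 0.09 in control wings (SD, n = 5 each), differed by 3.34 on the log2 scale. Differences from levels this low are compressed by the authors' normalization, so no fold is given for them.

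FBtr0075167, the next in size, was low in larval wings and intermediate in control pupal wings. It read 10.15, 10.15, 10.15, 9.58 and 10.02 in Tkv pupal wings, against 8.0, 7.18, 7.87, 5.79 and 8.12 in control pupal wings. Its means in larval wings were 4.99 ± 0.22 with Tkv and 5.03 ± 0.42 in controls (SD, n = 5 each). The pupal groups did not overlap, and control replicate 4 was well below the other control arrays. Without that array the pupal difference was 2.22 in place of 2.62.

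At the other end of the list stood members that barely met the threshold. FBtr0082935, with the smallest pupal difference (0.604), was bright everywhere: 13.25, 13.08, 13.21, 13.30 and 13.49 in Tkv pupal wings, against 12.50, 12.85, 12.74, 12.50 and 12.74 in control pupal wings. Its larval means were 12.40 ± 0.14 with Tkv and 12.40 ± 0.25 in controls (SD, n = 5 each). Small as it was, the difference left the 5 Tkv pupal arrays above all 15 others. FBtr0076082 had nearly the same pupal difference (0.604) at the dim end: 5.03, 4.58, 6.08, 4.97 and 4.83 in Tkv pupal wings, against 4.29, 4.43, 4.51, 4.58 and 4.65 in control pupal wings. Here the groups overlapped, and Tkv replicate 3 stood above the rest. Without that array the pupal difference was 0.360. Just outside the threshold, FBtr0085277 had a pupal difference of 0.5995 that came mostly from 1 array, at 6.98 in Tkv replicate 5 against 4.2 to 4.67 in the other Tkv pupal arrays and 4.05 to 4.58 in the control pupal arrays. FBtr0085440, at 0.595, had 8.0 to 8.60 in Tkv and 7.25 to 7.85 in control pupal wings, with no overlap.

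**Figure D3:**
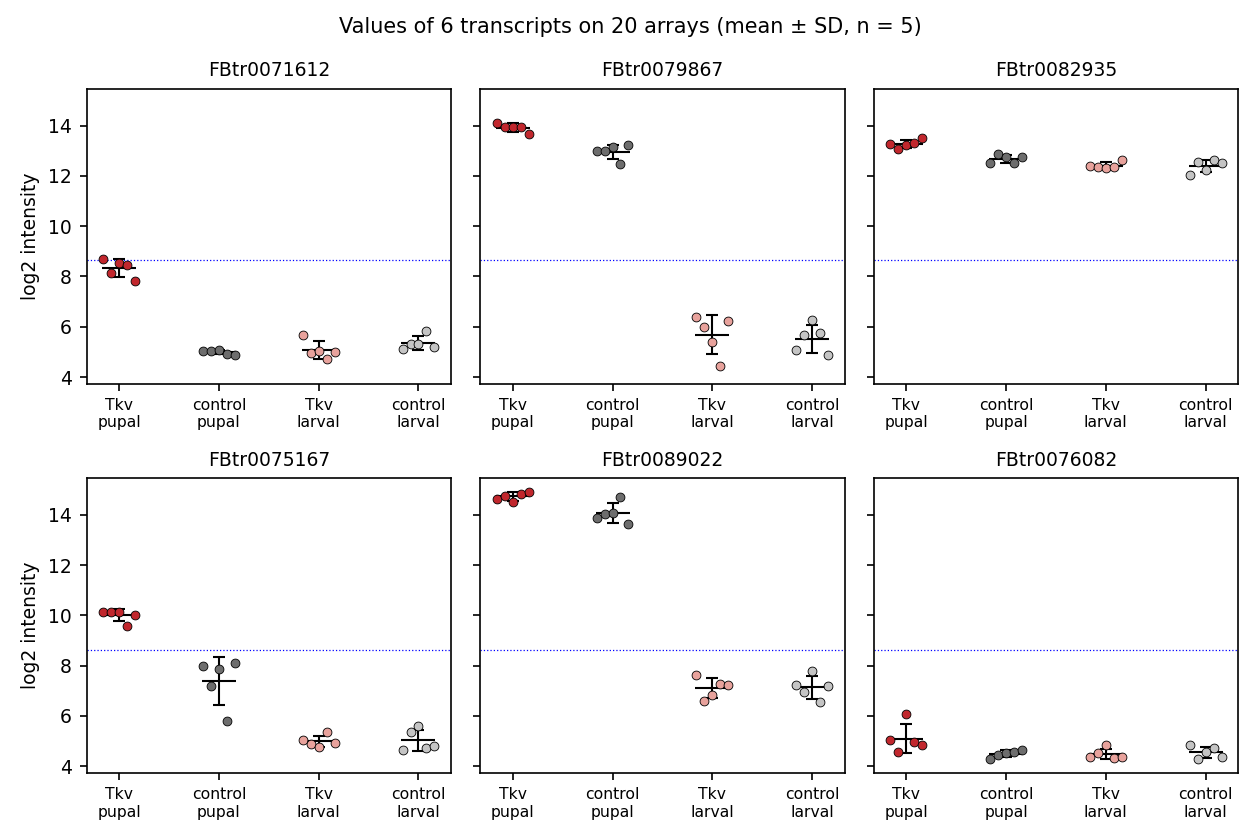
Log2 intensity on each array, with mean ± SD (n = 5), for the members with the 2 largest pupal differences (left), the 2 largest normal stage changes (middle) and the 2 smallest pupal differences (right). The dotted line is the boundary of 8.64, and FBtr0071612 and FBtr0075167 show Tkv pupal arrays far above the other groups.

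The normal stage change divided the members into 2 sets. In 31 it was at least 0.6, so that control wings too were higher as pupae than as larvae, and in 65 it lay between -0.6 and 0.6. At least 0.6 was reached by 14.7% of all transcripts, but the rule left out transcripts that drop. Of all transcripts with a stage change above -0.6, 2269 reached 0.6 and 10637 lay between -0.6 and 0.6. The pupal difference and the stage change both use the control pupal arrays, so nothing is read from this split. In the 31 the normal change had a median of 2.06 and reached 7.43, and the pupal difference had a median of 0.971. In the 65 the medians were -0.105 for the normal change and 0.801 for the pupal difference. Dim on all 10 pupal arrays were 34 of the 65 and 3 of the 31. Bright on all 10 were 14 of the 65 and 17 of the 31. Over all transcripts 42.2% were dim and 50.4% bright on all 10, shares that were not split by stage change. The control pupal level is part of the stage change. Over all transcripts its median was 10.28 at a stage change of 0.6 or more and 9.50 between -0.6 and 0.6. Nothing about the members is read from these counts.

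**Figure D4:**
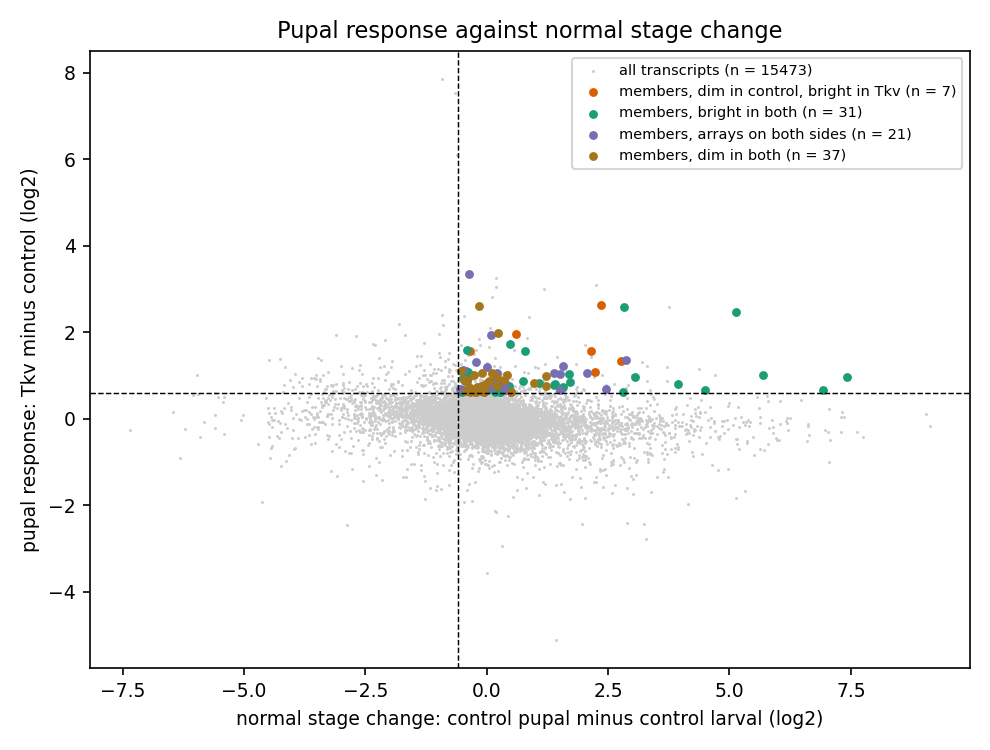
Pupal difference (Tkv minus control, log2) against the normal stage change (control pupal minus control larval, log2) for all 15473 transcripts (grey) and the 96 members (coloured by pupal brightness). Dashed lines are 2 limits of the rule, and bright members extend to the right, to a stage change of 7.43.

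The largest normal stage changes belonged to FBtr0079867 and FBtr0089022, which were low in larval wings and among the brighter members in pupal wings. FBtr0079867 read 14.12, 13.92, 13.96, 13.96 and 13.64 in Tkv pupal wings, against 12.97, 12.98, 13.14, 12.46 and 13.21 in control pupal wings. Its larval means were 5.69 ± 0.79 with Tkv and 5.52 ± 0.56 in controls (SD, n = 5 each). Control wings differed between the stages by 7.43 on the log2 scale. The control larval level was close to 5.47, the median control larval level of all transcripts dim on the 10 pupal arrays. The Tkv pupal mean was 1.96-fold above the control pupal mean, with no overlap of the pupal groups. For FBtr0089022 the pupal values were 14.64, 14.76, 14.50, 14.84 and 14.92 with Tkv, against 13.87, 14.04, 14.06, 14.72 and 13.62 in controls, a 1.59-fold difference. Control replicate 4 lay within the range of the Tkv arrays. The pair of that number differed by 0.124, and the pair of replicate 5 by 1.30.

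The lowest normal stage changes among the members were those of FBtr0078118 (-0.551) and FBtr0088209 (-0.527), close to the limit of the rule. FBtr0078118 read 10.00, 9.93, 9.77, 8.71 and 9.75 in Tkv pupal wings, against 8.73, 8.43, 9.64, 8.56 and 9.39 in control pupal wings. Its larval means, 9.75 ± 0.36 with Tkv and 9.50 ± 0.47 in controls (SD, n = 5 each), were close to the Tkv pupal mean of 9.63 ± 0.53, so in Tkv wings it hardly differed between the stages (-0.114). FBtr0088209 was dim, with 5.59, 7.70, 5.67, 5.28 and 6.05 in Tkv pupal wings, against 5.10, 5.07, 4.72, 4.57 and 5.35 in control pupal wings. Tkv replicate 2 alone stood far above the rest. The pupal difference of 1.10 was 0.685 without that array.

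In larval wings the limma test (Benjamini-Hochberg adjusted p under 0.05 over all transcripts) called 0 members in either direction, against 1.4% of all transcripts, and the rule kept large larval differences out. The highest were 0.35 for FBtr0072637 and 0.338 for FBtr0086665, and the lowest -0.336 for FBtr0076175 and -0.334 for FBtr0079779. All 4 were dim on every pupal array. FBtr0072637 read 4.79, 6.16, 5.96, 5.69 and 6.21 in Tkv larval wings, against 5.81, 6.23, 5.18, 4.91 and 4.92 in control larval wings, and these values overlapped over most of their range. FBtr0076175 read 4.46, 4.47, 3.93, 5.53 and 4.13 in Tkv larval wings, against 5.33, 4.71, 4.46, 4.81 and 4.88 in control larval wings, also with overlap. In pupal wings its values were 6.43 to 7.67 with Tkv and 5.48 to 6.54 in controls. Pupal levels of FBtr0086665 were 6.03 to 7.6 with Tkv and 5.23 to 6.68 in controls. For FBtr0079779 they were 5.92 to 6.52 with Tkv and 5.25 to 6.0 in controls.

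Across the list, the 5 Tkv pupal arrays lay above the 5 control pupal arrays for 57 members, against a background of 2.24% of all transcripts, and above all 15 other arrays for 48, against 0.756%. The rule used these arrays, so nothing is read from either count. The pupal groups lay apart for 24 of the 31 bright members, where they did for 228 of all 7801 bright transcripts, and for 11 of the 37 dim members, where they did for 54 of all 6530 dim transcripts. The background thus differed with brightness as well. The limma test called 52 members higher in Tkv pupal wings (1.62% of all transcripts) and 21 for a pupal response above the larval one (0.433%), both contrasts that the rule used. By the same test 33 members were higher in control pupal than in control larval wings (19.7% of all transcripts) and 3 were lower (20.8%). The limit of the rule on the normal stage change kept out transcripts with a larger drop, so nothing is read from these counts. In Tkv wings the pupal level exceeded the larval level for 94 members, where the share of all transcripts was 46.6%, and the rule fixes most of this difference too. The limma test called 69 of them higher (18.9% of all transcripts).

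The median level of the 96 was 9.10, 9.16, 8.97, 8.93 and 8.89 on the Tkv pupal arrays, against 7.79, 7.74, 7.77, 7.48 and 7.88 on the control pupal arrays. It was 6.39 to 6.72 on the Tkv larval arrays and 6.34 to 6.77 on the control larval arrays. The larval groups overlapped in this median and the pupal groups did not, which follows from the rule. The median pupal difference over the 96 was 0.884, 0.945, 0.858, 0.973 and 0.720 in the pairs of replicates 1 to 5. The median larval difference over the same transcripts was 0.0766, -0.0150, -0.0051, 0.0819 and 0.0412. By brightness, the median pupal difference over the 5 pairs was 0.943 to 1.70 for the 7 members dim in control and bright in Tkv wings, 0.840 to 1.34 for the members with arrays on both sides, 0.485 to 0.947 for the dim and 0.793 to 1.07 for the bright members. Replicate 2 of the Tkv pupal wings, the array with the lowest deposited median (9.19, against 9.30 to 9.59 in the 9 other pupal arrays), was the highest of the 5 for 29 members (30.2%, against 25.4% of all transcripts).

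The spread within groups was not a condition of the rule in larval wings. Its median over the 96 members was 0.322 in Tkv larval and 0.320 in control larval wings (SD, log2), against 0.262 and 0.230 over all transcripts. Dim members had 0.352 and 0.349, where all transcripts dim on the 10 pupal arrays had 0.335 and 0.326. Bright members had 0.268 and 0.223, where all bright transcripts had 0.203 and 0.172. Bright was set on the pupal arrays, so larval levels were not matched. The median control larval level was 9.69 for bright members and 12.35 for all bright transcripts. The 17 bright members with a stage change of 0.6 or more had 0.355 in Tkv larval and 0.308 in control larval wings. The other 14 bright members had 0.201 and 0.194. Nothing about the members is read from the larval spreads. In Tkv pupal wings the median SD of the dim members was 0.533, above the 0.421 of all dim transcripts, and in control pupal wings it was 0.314, below their 0.357. Pupal spreads are linked to the rule through the condition on pairs. Of the members 66 (68.8%) were read by 5 probe pairs, against 65.3% of all transcripts.

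The rule was also applied to 4 replicate numbers and the difference read in the pair left out, for each of the 5 numbers in turn. That pair was not used to choose the transcripts of its round. With 4 numbers the rule chose 108 to 146 transcripts with a median pupal difference of 0.785 to 0.836. In the pair left out, the median difference of these transcripts was 0.312 to 0.681, and 64.4 to 80.6% of them were higher in the Tkv array. Over all transcripts 47.8 to 53.9% were higher there. A difference of at least 0.6 in the pair left out was seen for 32.9 to 53.7% of those chosen, against 9.07 to 13.3% of all transcripts. With each of the 5 numbers the chosen transcripts were higher in the Tkv array more often than the background, at a smaller size than in the samples used for choosing. The pair left out was not independent of the rule, since the members were chosen with earlier results of these data known. All arrays were also normalized together. In each round 69 to 83 of the chosen transcripts were among the 96, for which the rule required a higher Tkv array in that pair too. The shares here and in the rounds below are therefore a description. With 5 numbers an exact two-sided test cannot reach p under 0.05, the 5 choices share arrays, and no test was made.

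Brightness, a grouping added after the values were seen, separated these transcripts further. When the mean Tkv pupal level of the 4 numbers was 8.64 or more, 73.2 to 96% were higher in the Tkv array left out, with a median difference of 0.462 to 0.997. Below 8.64 the shares were 55.2 to 68.7% and the median differences 0.130 to 0.371. All transcripts of the same brightness gave 47.5 to 54.5% and 46.2 to 53.2%. The share was larger for bright than for dim transcripts with each of the 5 numbers left out, by 17.2 to 38.5 percentage points. The lowest share among bright ones (73.2%) belonged to replicate 2.

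**Figure D5:**
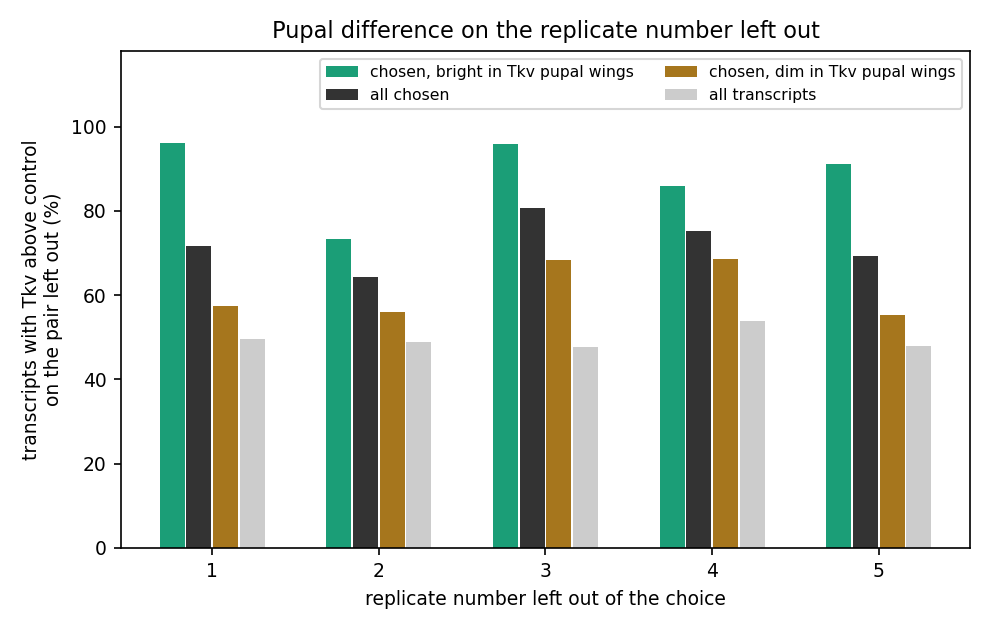
Share of transcripts (%) with the Tkv pupal array above the control pupal array in the pair left out, by the replicate number left out. Bars stand for the chosen transcripts that were bright in Tkv pupal wings, all chosen, the chosen that were dim, and all transcripts, and the bright bars (73.2 to 96%) exceed the dim ones (55.2 to 68.7%) at every number.

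The restriction to the pupal stage was read the same way. In the numbers left out, the median larval difference of the chosen transcripts was -0.0230 to 0.121. The pupal difference exceeded the larval one for 62.3 to 74.1% of them, against 48.6 to 55.0% of all transcripts. The share was 70.4 to 93.8% of the chosen bright transcripts, against 48.1 to 57.3% of all bright ones, and 54.0 to 60.2% of the chosen dim transcripts, against 48.0 to 52.3% of all dim ones. Of the 96 members, 38 were chosen again whichever number was left out: 17 of the 31 bright, 4 of the 7 that were dim in control and bright in Tkv wings, 8 of the 21 on both sides and 9 of the 37 dim. FBtr0075167 is one of the 38, FBtr0071612 was chosen in 4 of the 5 rounds, and FBtr0078118 was chosen in none. In the round that missed FBtr0071612, without replicate 1, it failed the limit on the larval difference. Its pupal difference stayed at 3.25 to 3.47 when arrays or numbers were left out. Every round reused values that had chosen the 96. The 38 and their split by brightness are therefore a description, not a reading of samples left out.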

How the data were processed

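The submitters deposited 1 file per array with a linear intensity per transcript, made by RMA per the submitters' processing notes, with versions and settings not given in the sources used here. Per the file headers each value summarises 3 to 5 probe pairs. The deposited series table holds log2 values that match the log2 of those intensities to within 5.0e-09. A deposited column headed as an error, a score between 0 and 1 with no stated unit, was not used, and the probe pair number was used only as a count. RMA compresses differences near the background.

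Log2 intensities of the 20 arrays were quantile-normalized together (limma 3.58.1, R 4.3.3), which assumes equal distributions in all groups. Groups and replicate numbers came from the sample titles. limma (lmFit with 4 group means on 20 arrays, contrasts.fit, eBayes, two-sided, Benjamini-Hochberg adjusted p under 0.05 over 15473 transcripts) gave the calls over all transcripts. No transcript was filtered. The boundary of 8.64 is the lowest point of a Gaussian density with bandwidth 0.4. The members and lists were chosen with earlier results of these data known, and the grouping by brightness and stage change was added after seeing the values. Members are given by ID as the 2 highest and 2 lowest in pupal difference, stage change and larval difference, plus the 2 nearest outside the threshold. The 11 gene and marker lists set up for naming could not be used, since 0 members have a symbol. The limma fit and the rule were tested on simulated data. Within groups, arrays correlated at 0.98 to 0.994 and no 2 arrays of a group had a median absolute difference under 0.184. Alternatives were other normalizations and thresholds, a filter, a replicate block, and leaving out arrays or numbers. For arrays no depth applies, and their number limits precision. Python 3.11.15, pandas 2.3.3, scipy 1.17.1 and matplotlib 3.10.9 were used. P-values would measure only the spread between these samples.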

Additional observations from a re-analysis of the deposited data

Results flagged for a closer look

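An array was flagged where Dixon's ratio, its gap to the nearest neighbour over the range of the 5 arrays, passed the critical value of 0.71. The ratio depends on the spread of the 5, so a flagged array can lie close to the others in log2 units. Examined were 52 groups of 5 arrays (the 12 members given by ID and the median level of the members, in 4 groups each). In 4 of the 52 groups 1 array was flagged, where chance gives about 1 in 20 groups. These were FBtr0075167 in Tkv pupal wings (9.58 in replicate 4), FBtr0078118 in Tkv pupal wings (8.71 in replicate 4), FBtr0079779 in control pupal wings (6.002 in replicate 3) and FBtr0082935 in Tkv larval wings (12.63 in replicate 5), all as log2 intensities. Over the 96 members such an array was found for 9 in Tkv pupal, 6 in control pupal, 9 in Tkv larval and 3 in control larval wings. The same count over all transcripts is not given, and the rule used the pupal arrays, so nothing is read from these counts.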

How the results depend on the processing

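The 96 members became 84 without further normalization (78 shared with the 96), 113 with median centring (89 shared) and 96 with the series table (96 shared). Without the condition on the pairs 177 transcripts were chosen, and with a pupal difference of at least 0.8 there were 55, with a median pupal difference of 1.045. A limit of 0.5 gave a median of 0.727. Leaving out 1 array or 1 number gave 89 to 147 members, the most without Tkv pupal replicate 5 (147) or all arrays of replicate 2 (146), where 4 pairs in place of 5 had to agree, and median pupal differences of 0.785 to 0.869. In none of the 28 refits of the original 96 did a member's pupal difference reach 0 or below. The lowest was 0.0622, without control pupal replicate 2, for FBtr0085742 (chosen after its values were seen). The rule fixed this outcome wherever a whole number was left out, since all 5 pairs had to be above 0. Leaving out a larval array does not change the pupal difference, and the series table holds the same values. Nothing is read from those refits. The median normal stage change of the members, 0.178, lies between members of both signs. It was -0.0220 without replicate 1 and -0.0101 without replicate 4, ran up to 0.216 when arrays were left out, and was 0.0132 and 0.295 at pupal limits of 0.5 and 0.8, 0.357 with a stage limit of -0.35 and 0.366 without the dimmest 25% of transcripts. The median larval difference was 0.0338 with a limit of 0.25, and 0.0043 to 0.100 when arrays were left out. The median share of transcripts higher in the pair left out was 71.5%, against 72.1% without further normalization and 75.8% with median centring. Limma counts over all transcripts ran from 265 to 578 (489 with all arrays) for the pupal contrast, from 110 to 231 (216) for the larval one and from 48 to 107 (105) for their difference when arrays or numbers were left out. The pupal count was lowest without replicate 3 (265) or replicate 5 (306). The larval count was 110 to 142 without replicate 2, 3 or 5 or control larval replicate 3, and the count for the difference was 48 to 69 without replicate 2, 3, 4 or 5 or control larval replicate 3. Fewer arrays were fitted in each case. With the replicate block (the number as a fixed term) they were 600, 255 and 124, and no count moved by over 1.5 times with this or the random block. Over the group pairs, deviations of same-numbered arrays correlated at -0.186 to 0.287 and of other arrays at -0.217 to 0.260. The overlap leaves pairing by number undecided. Array image names carry 1 shared number per replicate number across the 4 groups, with no stated meaning. With the number as a random block the 3 counts were 641, 258 and 141. Filters and thresholds cannot change the pupal difference of a single transcript and were not run for those given by ID.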

Other observations

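FBtr0085742 was singled out after its values were seen. Its log2 intensity was 14.31, 14.18, 14.11, 14.51 and 14.35 in Tkv pupal wings, against 14.26, 11.18, 14.10, 14.44 and 14.12 in control pupal wings. Control replicate 2 alone was low. Without that array the pupal difference was 0.0622, where it was 0.673 with all arrays.

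Among the 96 members, 4 pairs have ID numbers 1 or 2 apart, and whether a pair shares a gene is not known. Over the 20 arrays, which include the groups used for choosing, FBtr0071610 and FBtr0071612 had a correlation of 0.895, and 0.614 after the group means were removed. FBtr0071610 read 11.98, 11.13, 11.27, 11.27 and 10.70 in Tkv pupal wings, against 10.11, 10.01, 9.73, 9.34 and 9.38 in control pupal wings. The other 3 pairs had correlations of 0.157 to 0.765, and of -0.333 to 0.0871 after the group means were removed. Over all 4560 pairs of members the median correlation after removing group means was 0.0424, with quartiles at -0.154 and 0.226.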
